A study of Mus musculus with 3 samples.

Results

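The PLK1 and polo-box inhibitors were 6 wells of a kinase inhibitor screen, taken by compound name. GW843682X, NMS_1286937 and TAK_960 bind the ATP site of polo-like kinase 1 (PLK1). Poloxin and Poloxime are directed at its polo-box domain. Rigosertib (sodium), sold as a PLK1 inhibitor, was put in neither class. They were 6 of the 221 compound wells, and of the 253 wells of every kind, that the barcode lists gave to a plate. The first 5 compounds were on plate 1 and Rigosertib was on plate 3.

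The cells were wild-type (WT) fibroblasts from mouse embryos (MEF). They spent 4 days in CFAE+8 medium, and each well received 1 compound from a vendor's library of kinase inhibitors. RNA was read by DRUG-seq2, in which reverse transcription adds a barcode to each well and the wells of a plate are then pooled and sequenced as 1 library. The reference was every other compound well of the same plate, with 85 wells on plate 1 and 40 on plate 3, all of the same genotype, medium and time. None of the wells carries a vehicle name, and a compound that shared a response with many reference wells therefore differed less from them. Whether the 6 doses matched is unknown, with concentrations not given in the sources used here. Neither the mouse strain nor separate embryos or cultures behind the wells are named there.

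PLK1 is a serine/threonine kinase that drives mitotic entry, centrosome maturation, chromosome alignment and cytokinesis. Its kinase domain binds ATP, and its polo-box domain docks it on phosphorylated partners at centrosomes, kinetochores and the midbody, so that both sites have been targets for inhibitors. Blocking the kinase in cultured cells is known for arrest in mitosis. Poloxin is an ester of the oxime of thymoquinone, and Poloxime is that oxime without the ester group, known as its hydrolysis product. Rigosertib is a styryl benzyl sulfone that has also been reported to bind tubulin and RAS-binding domains.

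Depth differed between the wells. The total was 115541 counts for GW843682X, 241148 for NMS_1286937 and 450514 for TAK_960. It was 264702 for Poloxin, 205854 for Poloxime and 380609 for Rigosertib. The other compound wells held 45416 to 591025 counts on plate 1 (median 330869) and 222067 to 703918 on plate 3 (median 440222). GW843682X had the fourth lowest total among the compound wells of plate 1, at 36.3% of the plate median, and TAK_960 stood at 142% of it. A low total can come from fewer cells or from less RNA per cell, and these cannot be told apart here. The 6 wells had counts in 8735 (GW843682X) to 11639 (Rigosertib) genes. Each compound had 1 well, whose spread was assumed to equal that of the other wells, and p-values measure only the spread between wells. Vim, a mesenchymal intermediate filament gene, had 1557 to 2637 CPM (counts scaled to a common well total) in the 6 wells and Col1a2, a collagen I chain gene, 108 to 407 CPM. The epithelial genes Epcam and Cdh1, the endothelial gene Tek, the adipocyte genes Adipoq and Plin1 and the leukocyte gene Ptprc had 0 counts in all 6 wells. Other markers on these lists did have counts. Summed epithelial markers had 14.6 to 74.6 CPM in the 6 wells. Summed endothelial markers had 34.6 CPM with GW843682X, above all 85 other wells of plate 1 (median 5.5). They had 16.6 CPM with NMS_1286937 and 17.8 CPM with TAK_960. At the totals given above, each of these sums rests on few counts, so the order of the wells is uncertain. Summed adipocyte markers reached at most 5.3 CPM, with Rigosertib.

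The wells with the 3 ATP-site compounds had low levels of mitosis genes, and those with the polo-box compounds did not. The levels of 58 mitosis genes (cyclins, chromosomal passenger, kinesin, kinetochore and checkpoint genes) were summed in each well. The sum was 969 CPM with GW843682X, 875 CPM with NMS_1286937 and 1030 CPM with TAK_960, against 654 to 2938 CPM in the other wells of plate 1 (median 1701). It was 1651 CPM with Poloxin and 1919 CPM with Poloxime. Rigosertib had 715 CPM, against 601 to 2786 CPM in the other wells of plate 3 (median 2219). The 3 ATP-site wells lay near the low end of their plate, with 8, 6 and 9 of the 85 other wells below them, and both polo-box wells lay within its middle and upper range. Only LDC4297, at 601 CPM, was below Rigosertib on plate 3. On plate 1 the 6 wells of other inhibitors of cell cycle kinases (PLK4 and TTK classes, assigned from general knowledge) spanned 719 to 1716 CPM.

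**Figure D1:**
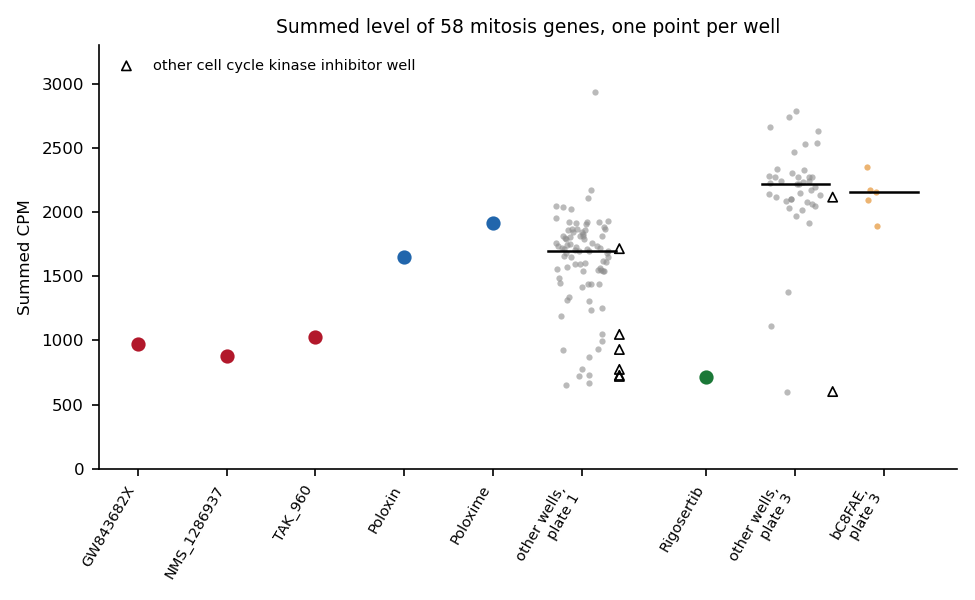
Summed level of 58 mitosis genes in each well (vertical axis, CPM), with 1 point per well. The compounds come first on each plate, then the other compound wells in grey with their median as a line, the bC8FAE medium wells in orange, and wells of other cell cycle kinase inhibitors drawn again as open triangles. GW843682X, NMS_1286937 and TAK_960 lie at 969, 875 and 1030 CPM, Poloxin and Poloxime at 1651 and 1919 CPM, and Rigosertib at 715 CPM.

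Plk1 itself, on chr7:122159439-122169873 (mm10, plus strand), had 60.6 CPM with GW843682X, 16.6 CPM with NMS_1286937 and 8.9 CPM with TAK_960, against 8.0 to 117 CPM in the other wells of plate 1 (median 69.5). With Poloxin it had 71.8 CPM and with Poloxime 72.9 CPM. With Rigosertib it had 28.9 CPM, against 8.0 to 153 CPM in the other wells of plate 3 (median 109). These levels rest on 7, 4 and 4 counts in the ATP-site wells, 19 and 15 in the polo-box wells and 11 in the Rigosertib well. NMS_1286937 and TAK_960 were among the lowest wells, with 3 and 1 of 85 below them, while GW843682X, with 30 below, overlapped the bulk of the plate. The fitted log2 fold change of the ATP-site class was -1.80 ± 0.54 (SE), with an edgeR adjusted p of 0.056, so Plk1 was not called. With Rigosertib it was -2.0 ± 0.72 (adjusted p = 0.195). An exon of Gm44985 overlaps Plk1 on the other strand, with strand use in counting not given in the sources used here.

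Promoters are shown of 3 mitosis genes with fitted changes below 0 in the ATP-site class and with Rigosertib. Plk1 was not low with GW843682X. The 3 promoters carry the cell cycle genes homology region, a motif of 6 bases in many genes expressed in mitosis, here in capitals. Plk1 encodes the compounds' target, Top2a a topoisomerase that untangles chromosomes, and Cdc20 an activator of the anaphase-promoting complex. The motif was searched as TTTGAA, its reverse complement TTCAAA, or TTCGAA (its own reverse complement), on both strands, in windows of 250 bases before to 50 after the start of each gene. The windows are from RefSeq on GRCm38.p6, at chr7:122159185-122159484 (plus strand) for Plk1, chr11:99024140-99024439 (minus strand) for Top2a and chr4:118437294-118437593 (minus strand) for Cdc20.
Plk1: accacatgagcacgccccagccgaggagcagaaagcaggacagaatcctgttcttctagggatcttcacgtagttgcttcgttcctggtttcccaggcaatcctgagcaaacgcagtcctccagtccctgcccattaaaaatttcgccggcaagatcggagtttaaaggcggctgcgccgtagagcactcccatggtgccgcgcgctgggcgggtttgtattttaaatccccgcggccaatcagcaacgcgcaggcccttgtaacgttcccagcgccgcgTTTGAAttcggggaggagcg
Top2a: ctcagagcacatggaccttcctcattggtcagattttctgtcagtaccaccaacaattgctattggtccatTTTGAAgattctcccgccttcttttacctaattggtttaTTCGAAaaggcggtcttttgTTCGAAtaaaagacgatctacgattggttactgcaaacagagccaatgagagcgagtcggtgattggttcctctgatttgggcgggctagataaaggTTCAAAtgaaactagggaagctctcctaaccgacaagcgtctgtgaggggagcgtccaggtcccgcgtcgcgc
Cdc20: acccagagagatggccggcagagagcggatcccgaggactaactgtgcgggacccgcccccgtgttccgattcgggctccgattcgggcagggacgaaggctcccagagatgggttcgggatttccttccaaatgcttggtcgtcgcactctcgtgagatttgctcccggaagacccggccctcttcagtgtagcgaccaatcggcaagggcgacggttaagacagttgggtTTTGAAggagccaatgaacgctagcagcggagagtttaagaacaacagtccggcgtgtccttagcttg
The motif stood in 23 of the 32 mitosis genes that were tested and had a window (71.9%), in 4 of 24 DNA replication genes (16.7%), in 4 of 20 p53 target genes (20%), in 826 of the 5469 tested genes with a window (15.1%) and in 5854 of all 27025 windows (21.7%). The match describes these letters only, and no factor's binding was measured.

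Of the 58 mitosis genes, 40 passed the filter on low counts in the joint fit of both plates. For the ATP-site class, 36 of 40 had a fitted value below 0, with a median log2 fold change of -1.14, where 52.4% of all 7173 genes tested were below 0 with a median of -0.03. The edgeR quasi-likelihood test called 0 of the 40, against 1.16% of all genes tested. For the polo-box class 16 of 40 were below 0, with a median of 0.07, and 0 were called (0% of all genes). One by one, on plate 1 alone, 34 of 35 mitosis genes were below 0 with GW843682X, 34 with NMS_1286937 and 32 with TAK_960, with medians of -1.01, -1.23 and -1.0. With 5 genes at 0 counts set at a bound of 3 counts, the GW843682X median became -0.75. Poloxin had 19 of 35 below 0 (median -0.03) and Poloxime 15 (median 0.08). On plate 3, 41 of 41 were below 0 with Rigosertib, with a median of -2.07 (-1.99 with 3 genes at their bound).

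**Figure D2:**
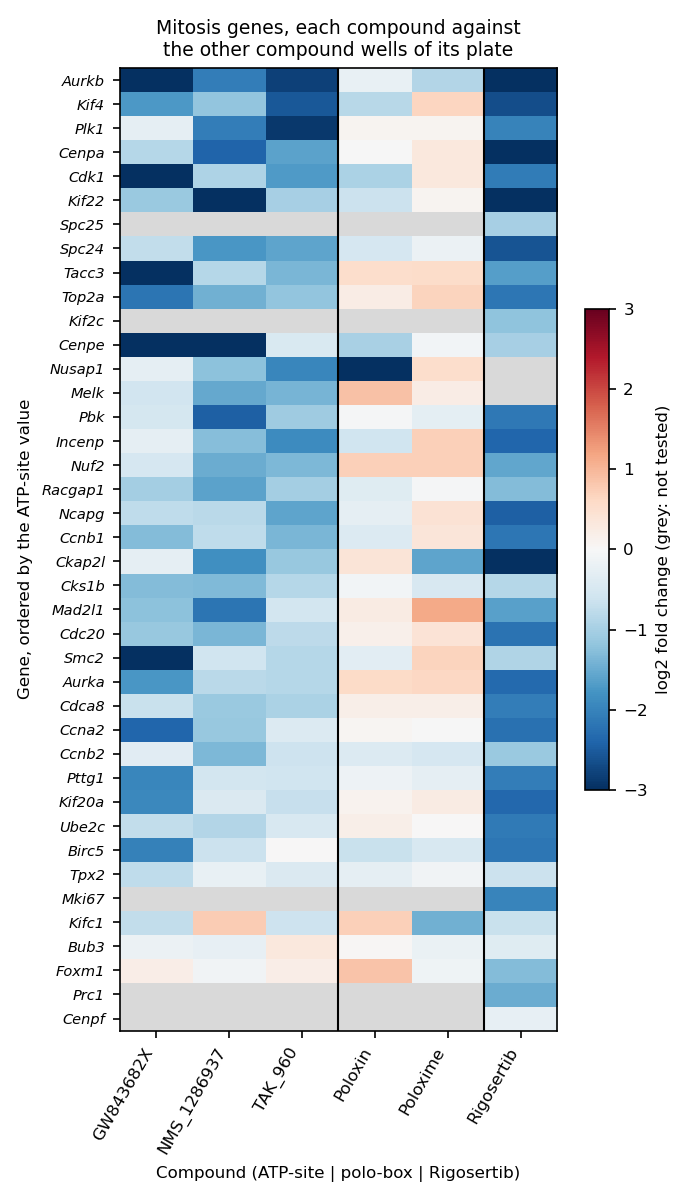
Fitted log2 fold change of mitosis genes (rows, ordered by the ATP-site class value) for the 6 compounds (columns) against the other compound wells of their plate, with colour limited to 3 in either direction and grey for genes not tested. The columns of GW843682X, NMS_1286937, TAK_960 and Rigosertib are mostly below 0, and those of Poloxin and Poloxime are on both sides of 0, with 19 and 15 of 35 genes below it.

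Top2a had 17.3, 29.0 and 33.3 CPM with GW843682X, NMS_1286937 and TAK_960, 86.9 and 121 CPM with Poloxin and Poloxime, and 75.6 CPM at the median of the other wells of plate 1 (3.3 to 162). Cdc20 had 34.6, 29.0 and 42.2 CPM in the same ATP-site wells, 79.3 and 97.2 CPM in the polo-box wells, and 69.2 CPM at that median (12 to 136). The ATP-site wells lay below the polo-box wells in both genes. The share of all genes with such an order was not counted, and neither gene was called between the classes. The fitted change of the ATP-site class was -1.42 ± 0.49 for Top2a (edgeR adjusted p = 0.098) and -1.03 ± 0.37 for Cdc20 (0.105). Aurkb, the kinase of the chromosomal passenger complex, had 0, 4.1 and 2.2 CPM in the ATP-site wells and 15.1 and 9.7 CPM in the polo-box wells, against 0 to 44.0 CPM (median 15.1) in the others. It changed by -2.74 ± 0.78 and just missed the call (adjusted p = 0.050). Cenpa, the centromeric histone gene, had 86.5, 29.0 and 48.8 CPM in the ATP-site wells, against 150 CPM at the median of the others, and was not called (-1.62 ± 0.50, adjusted p = 0.066). Ccnb1, the mitotic cyclin gene, and Aurka, the kinase that activates PLK1, were not called either (-1.15 ± 0.49 and -0.97 ± 0.45, adjusted p = 0.184 and 0.221). Mki67, a proliferation marker, had 4.1 to 17.3 CPM in the ATP-site wells, against a median of 11.3 CPM in the other wells, and a fitted change of -0.20 ± 0.56 (adjusted p = 0.899).

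These tests set the ATP-site class against wells that include other cell cycle inhibitors. Without those wells, 327 of 7030 genes (4.65%) were called, 146 higher (2.08%) and 181 lower (2.57%), and 82 of these were among the 83 called with them. Mitosis genes called lower were then 8 of 40, namely Plk1 (-1.86), Aurkb (-2.75), Kif4, a chromosome-associated kinesin (-1.91), Cenpa (-1.68), Top2a (-1.46), Incenp, the scaffold of the passenger complex (-1.32), Racgap1, a cytokinesis factor (-1.25), and Cdc20 (-1.04). For the polo-box class 0 of 7030 genes were called without those wells (edgeR; 218 at an unadjusted p under 0.05).

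Plk3, the stress-responsive relative of PLK1 on chr4:117128655-117133963 (mm10, minus strand), had 234 CPM with GW843682X, 187 CPM with NMS_1286937 and 198 CPM with TAK_960, against 8.0 to 175 CPM (median 79.4) in the other wells of plate 1. It had 144 CPM with Poloxin and 77.7 CPM with Poloxime. Rigosertib had 221 CPM, against 13.4 to 217 CPM (median 76.3) on plate 3. All 3 ATP-site wells were above all 85 other wells, and the Rigosertib well was above all 40 of its plate. The next highest on plate 1 were wells of other cell cycle kinase inhibitors. Centrinone_B had 175 CPM, CFI_400945 fumarate 171 CPM and BAY1217389 163 CPM, while R1530, also of that group, had 53.9 CPM. The fitted change of the ATP-site class was 1.17 ± 0.34 (adjusted p = 0.053), and without the cell cycle inhibitor wells it was 1.26 and called. With Rigosertib it was 1.25 ± 0.57 (adjusted p = 0.299). An exon of Tctex1d4 overlaps Plk3 on the other strand.

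Plk2, a p53-responsive family member, was not called, with 34.6, 66.3 and 44.4 CPM in the ATP-site wells, 68.0 CPM in each polo-box well and 56.1 CPM at the median of the other wells of plate 1 (change of -0.34 ± 0.30, adjusted p = 0.575). With Rigosertib it had 73.6 CPM, against 66.2 CPM at the median on plate 3. Plk4, the centriole duplication kinase, had at most 3 counts in any of the 6 wells and Plk5 was also too low to test. In the list of the PLK family with PLK1 activators, substrates and partners, 9 of 11 tested genes were below 0 in the ATP-site class (median -0.59, against -0.03 for all genes tested). In the polo-box class 2 of 11 were below 0 (median 0.16), and with Rigosertib 9 of 11 (median -2.0, or -1.50 with 1 gene at its bound). The list shares genes with the mitosis list, among them Plk1, Aurka, Kif20a and Pttg1, so the lists are not independent. Its summed level was not low in the ATP-site wells, at 511, 473 and 462 CPM with GW843682X, NMS_1286937 and TAK_960, against a median of 479 CPM in the other wells of plate 1.

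**Figure D3:**
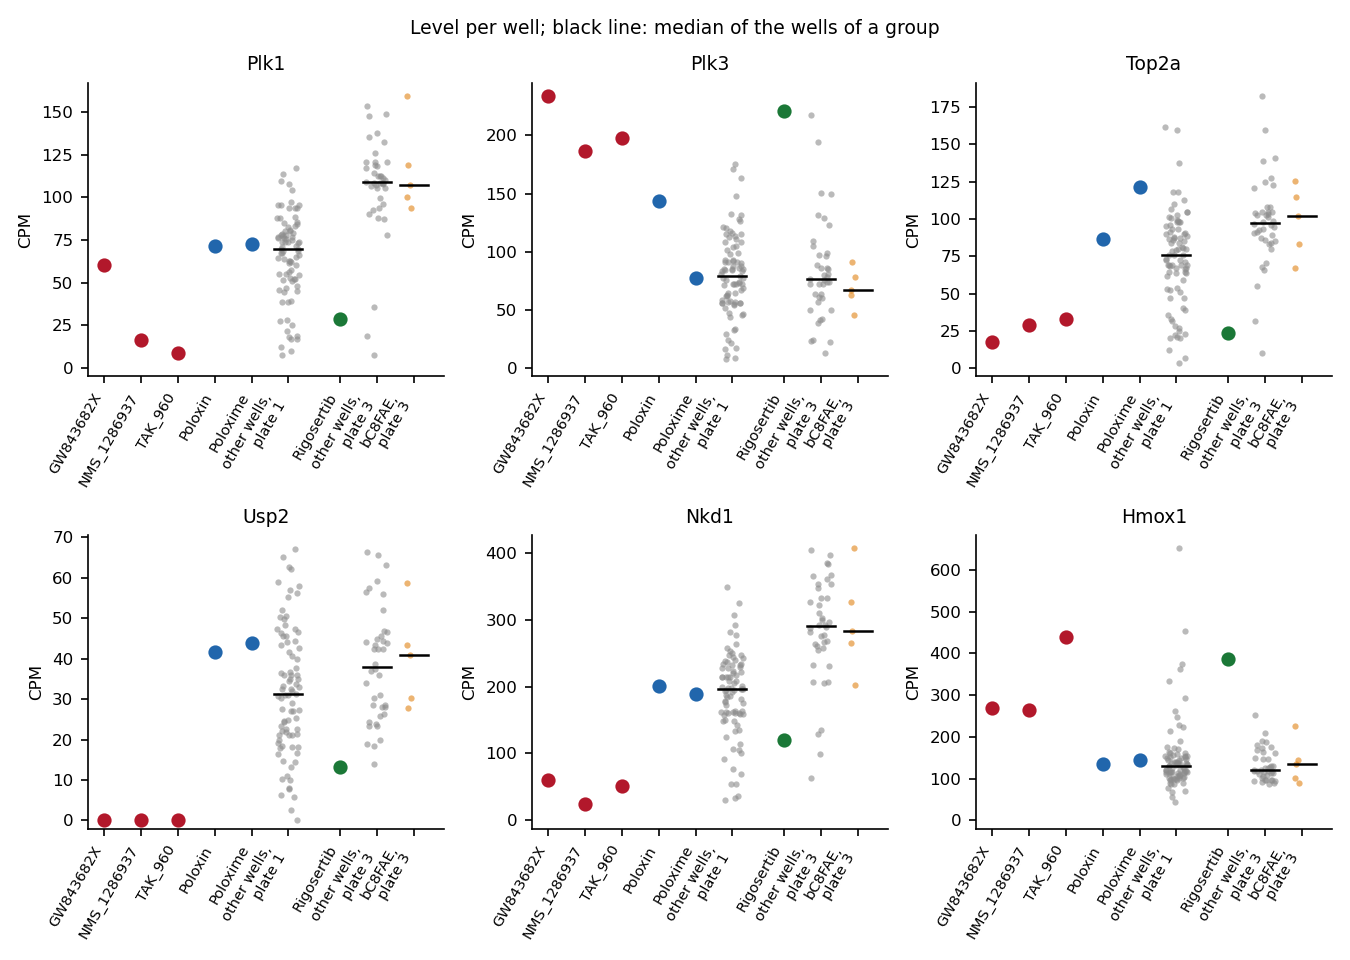
Level of Plk1, Plk3, Top2a, Usp2, Nkd1 and Hmox1 (vertical axes, CPM) in each compound well, with the 6 compounds before the other wells of their plate and lines at the medians of those. Plk3 lies at 187 to 234 CPM with the ATP-site compounds, above all other wells of plate 1, and Usp2 at 0 in all 3 of them.

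Genes of DNA replication were also mostly below 0 in the ATP-site class, with 25 of 30 tested genes and a median of -0.55. The median of all genes tested was -0.03. None of the 30 was called, against 1.16% of all genes. The polo-box class had 9 of 30 below 0 and a median of 0.20, against -0.04 for all genes. By compound, 19, 26 and 24 of 28 genes were below 0 with GW843682X, NMS_1286937 and TAK_960 (medians -0.40, -0.80 and -0.49). Without the other cell cycle inhibitor wells 6 of 30 were called lower in the ATP-site class, where 2.57% of all genes were. These were Mcm6 and Mcm7 (subunits of the replicative helicase), Rrm1 (ribonucleotide reductase), Tyms (thymidylate synthase), Ccne1 (cyclin E1) and Chaf1b (chromatin assembly).

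Across all genes, the ATP-site class had 83 genes called of 7173, with 42 higher (0.586%) and 41 lower (0.572%; 1323 at an unadjusted p under 0.05). The number of calls fell when any of the 3 wells was left out. Without GW843682X 30 genes were called, without NMS_1286937 only Antxr2 (1.37 ± 0.29, adjusted p = 0.0374) and without TAK_960 only Snrpc, a spliceosome gene (-1.04 ± 0.21, adjusted p = 0.0186). Of the 16 called genes named here, 8 were still called without GW843682X and 0 without either other compound, and every one that could be tested kept its direction. Taken alone, GW843682X, NMS_1286937 and TAK_960 each had 0 genes called of 6448 by edgeR, and 0 by DESeq2, with 455, 556 and 762 genes at an unadjusted p under 0.05 in edgeR.

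Usp2, a ubiquitin-specific protease gene on chr9:44067021-44095627 (mm10, plus strand), had 0 counts in all 3 ATP-site wells. It had 41.6 CPM with Poloxin and 43.7 CPM with Poloxime (11 and 9 counts), 0 to 67.1 CPM (median 31.3) in the other wells of plate 1, and 13.1 CPM with Rigosertib. Only 1 of the 85 other wells was also at 0. Low levels were shared with wells of other cell cycle kinase inhibitors. Centrinone_B had 2.5 CPM, the fumarate and free base of CFI_400945 had 7.9 and 10.9 CPM, Centrinone 14.5 CPM and BAY1217389 16.7 CPM. R1530, also of that group, had 36.8 CPM. Some wells outside that group were as low, with KX2_391 (mesylate) at 0, MCB_613 at 5.8 CPM, PF_04979064 at 6.2 CPM and GNE_317 at 8.0 CPM. Low Usp2 was therefore not particular to cell cycle kinase inhibitors. Against a floor of 3 counts over the 3 wells (3.72 CPM), Usp2 was at least 8.16-fold lower in the ATP-site wells than in the other wells pooled (adjusted p = 0.003). Exons of Gm39325 and Gm49380 overlap it on the other strand. The transcript 4930427A07Rik was also at 0 in the 3 wells and at least 4.10-fold lower than in the other wells (adjusted p = 0.008).

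Nkd1 and Sp5, targets of Wnt signalling, were among the decreases. Nkd1, a feedback inhibitor of the pathway, had 60.6, 24.9 and 51.1 CPM with GW843682X, NMS_1286937 and TAK_960 and 200 and 189 CPM with Poloxin and Poloxime, against 31.0 to 349 CPM (median 196) in the other wells. Only 5, 0 and 3 of the 85 other wells were below the 3 ATP-site wells. The change was -2.20 ± 0.46 (adjusted p = 0.008). Sp5, a transcription factor gene activated by Wnt, had 17.3, 8.3 and 4.4 CPM in the ATP-site wells and 34 and 72.9 CPM in the polo-box wells, against a median of 49.8 CPM (-2.79 ± 0.71, adjusted p = 0.038). In the list of Wnt targets 9 of 10 tested genes were below 0 (median -0.78), and these 2 were called, against 0.572% of all genes called lower. The summed level of the 14 listed genes was not low, at 2077, 2073 and 1800 CPM with GW843682X, NMS_1286937 and TAK_960, against 361 to 2294 CPM (median 1736) in the other plate 1 wells. Ccnd1, the cyclin D1 gene, named after its values were seen, made up most of that sum, with 1766, 1941 and 1631 CPM in the ATP-site wells, against a median of 1306 CPM (0.35 ± 0.26, adjusted p = 0.483). Without the other cell cycle inhibitor wells, Wif1 (-4.19) was called lower too. The median over 8 genes was -2.01 with NMS_1286937 and -1.59 with TAK_960 but 0.02 with GW843682X, where 4 of 8 were below 0.

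The other decreases named were Ephb2, an ephrin receptor (-3.29), C1qtnf1, a secreted C1q-related protein (-3.01), Prim2, a primase subunit (-2.53), and Actg1, cytoplasmic gamma-actin (-0.79). C1qtnf1 had 8.7, 4.1 and 2.2 CPM in the ATP-site wells and 49.1 and 24.3 CPM in the polo-box wells, against a median of 30.0 CPM, and an exon of Gm11747 overlaps it on the other strand. Adjusted p-values of these 4 genes were 0.038 to 0.045.

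The largest increases called, among genes with at least 10 CPM, were in Sema7a, a membrane-anchored semaphorin (2.22), Steap3, an endosomal ferrireductase (2.21), Ralgds, an exchange factor of RAL downstream of RAS (1.87), Sh3bgrl2 (1.73), Glrx, glutaredoxin (1.66), and Pcdh7, a protocadherin (1.61). Ralgds had 43.3, 74.6 and 66.6 CPM with GW843682X, NMS_1286937 and TAK_960 and 7.6 and 24.3 CPM with Poloxin and Poloxime, against a median of 14.5 CPM (adjusted p = 0.008). The ATP-site wells were above at least 84 of the 85 other wells. Glrx had 17.3, 58.1 and 73.2 CPM in the ATP-site wells, so the rise was carried by NMS_1286937 and TAK_960, which were above all 85 other wells (adjusted p = 0.008). Likewise Sh3bgrl2 was at 0 with GW843682X and at 58.1 and 24.4 CPM with the other two.

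Among matrix genes only Fbln2, fibulin 2, was called. It had 268, 241 and 253 CPM with GW843682X, NMS_1286937 and TAK_960 and 94.4 and 155 CPM with Poloxin and Poloxime, against a median of 120 CPM and a highest value of 237 CPM in the other wells. All 3 ATP-site wells were above all 85 others (0.89 ± 0.22, adjusted p = 0.028). Hmox1, the NRF2 target that encodes heme oxygenase, had 268, 265 and 440 CPM in the ATP-site wells and 136 and 146 CPM in the polo-box wells, against 44.0 to 653 CPM (median 130) in the others (1.00 ± 0.28, adjusted p = 0.045). In the list of NRF2 targets and oxidative stress genes, 5 of 24 were below 0 in the ATP-site class (median 0.40, 1 called). The medians were 0.81 with TAK_960 and -0.04 with GW843682X, -0.05 with Poloxin and -0.29 with Poloxime.

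Of the p53 targets, 10 of 26 were below 0 in the ATP-site class, with a median of 0.10 and 0 called. Cdkn1a, which encodes the CDK inhibitor p21, had 1921, 2198 and 1958 CPM in the ATP-site wells and 1662 and 1428 CPM in the polo-box wells, against a median of 1650 CPM (0.15 ± 0.17, adjusted p = 0.674). Mdm2, which encodes the ubiquitin ligase of p53, had 364, 245 and 395 CPM in the ATP-site wells and 106 and 194 CPM in the polo-box wells, against 22 to 569 CPM (median 147). It was not called (0.83 ± 0.29, adjusted p = 0.096), but it was without the other cell cycle inhibitor wells (0.91 ± 0.27, adjusted p = 0.0377).

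The remaining pathway lists had medians between -0.27 and 0.52 for the ATP-site class. The marker lists with tested genes had medians of -0.04 for fibroblast (11 genes), -0.65 for epithelial (3), 1.0 for macrophage (2), 1.51 for skeletal muscle (2) and -0.37 for neural genes (3), with 0 called. Of inflammatory and senescence-associated secreted genes, 6 of 18 were below 0 (median 0.52, 0 called). The lists of microtubule subunits (-0.02), smooth muscle and SRF targets (0.17, with Actg1 called lower), YAP targets (-0.11), heat shock (-0.06), integrated stress response (-0.01), fibroblast matrix (-0.09), interferon-induced (-0.27), ERK targets (0.29), apoptosis regulators (0.05), mitochondrially encoded (-0.20) and sterol synthesis genes (-0.17) held 0 called genes other than Actg1 and Fbln2. Without the other cell cycle inhibitor wells, calls in these lists, the NRF2 list and the marker lists also took in Des (1.80), Map1a (1.07), Ccl7 (1.02) and Mt2 (0.95) on the higher side and Ifitm1 (-2.56), Mthfd2 (-1.49) and S100a4 (-0.89) on the lower, where 2.08% of all genes were called higher and 2.57% lower.

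**Figure D4:**
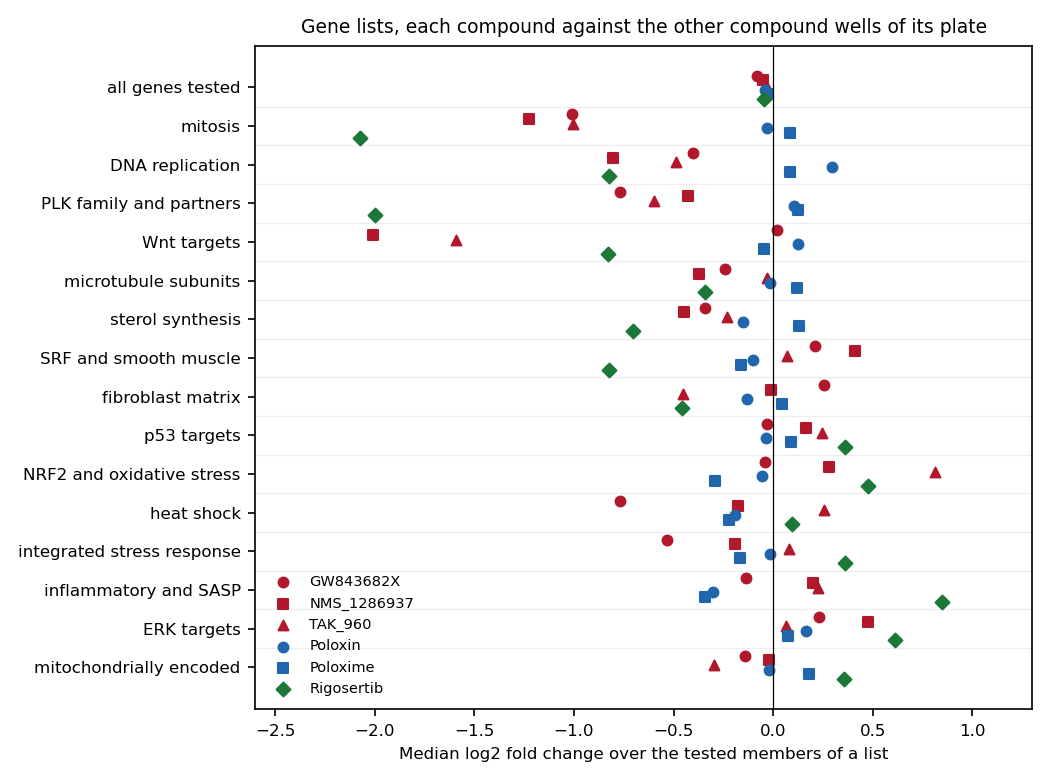
Median log2 fold change of each gene list (rows, with all genes tested for comparison) for the 6 compounds (points by compound) against the other compound wells of their plate. Mitosis medians lie at -1.01, -1.23, -1.0 and -2.07 for GW843682X, NMS_1286937, TAK_960 and Rigosertib and at -0.03 and 0.08 for Poloxin and Poloxime.

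Neither polo-box compound had a called gene. The edgeR test called 0 of 7173 genes for the class (205 at an unadjusted p under 0.05; 0 by DESeq2) and 0 of 6448 for Poloxin and for Poloxime (113 and 240 at an unadjusted p under 0.05; 0 each by DESeq2). The fitted change of Plk1 was 0.07 with a 95% interval of -0.87 to 1.00, that of Top2a 0.44 (-0.45 to 1.33) and that of Cdc20 0.27 (-0.45 to 0.99). With 2 wells the intervals of Plk1 and Top2a still hold an increase of 1 on the log2 scale. In the simulated data, where 200 genes were changed, the same fit called 43.9% of genes changed by 1 on the log2 scale and 80.6% of those changed by 2. Only genes averaging at least 10 counts at the median library were changed, so these rates do not cover lower genes. The simulated plates did not differ and all wells of a class had the same change, so the rates can be too high for the real wells.

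Set against each other, the classes differed in 1 gene. ATP-site wells minus polo-box wells gave 1 call of 7173 (0.0139%; 641 at an unadjusted p under 0.05), Usp2, which was at least 11.4-fold lower in the ATP-site wells than in the polo-box wells (adjusted p = 0.0487). It was not called with any of the 5 wells left out. The difference was -1.86 for Plk1 (95% interval -3.29 to -0.44, adjusted p = 0.488), -1.86 for Top2a (-3.17 to -0.54, adjusted p = 0.463), -1.30 for Cdc20 (-2.31 to -0.28, adjusted p = 0.490) and -2.17 for Nkd1 (-3.37 to -0.98, adjusted p = 0.423). Plk3 differed by 0.79 (-0.36 to 1.95, adjusted p = 0.646). In this contrast 37 of 40 mitosis genes were below 0, with a median of -1.10, and 26 of 30 replication genes, with a median of -0.72, where 48.1% of all genes were below 0.

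All 15 pairs of compounds were also compared, with p-values adjusted over 107595 combinations of gene and pair. None was called by edgeR (5646 at an unadjusted p under 0.05) or by DESeq2. The smallest adjusted p was 0.698, for TAK_960 minus Poloxime, the pair with the most genes at an unadjusted p under 0.05 (622). The fewest were found for TAK_960 minus Rigosertib (174), followed by Poloxin minus Poloxime (199) and NMS_1286937 minus TAK_960 (210). Median absolute differences ran from 0.38 for TAK_960 minus Rigosertib to 0.62 for TAK_960 minus Poloxime. GW843682X, the shallowest well, had medians of 0.52 to 0.61 in its 5 pairs.

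Poloxin and Poloxime, which differ by the ester group on the oxime, were not told apart. Poloxin minus Poloxime was 0.04 for Plk1 (95% interval -1.80 to 1.88), -0.42 for Top2a (-2.20 to 1.37) and 0.94 for Plk3 (-0.97 to 2.85). The median difference was -0.07 over 40 mitosis genes and 0.43 in absolute size over all genes. With 1 well each, the intervals of Plk1 and Top2a reach past 1 on the log2 scale in both directions, so differences of that size were not detectable.

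Within the ATP-site class, Plk1 was higher with GW843682X than with TAK_960 by 2.62 (95% interval -0.04 to 5.27) and than with NMS_1286937 by 1.81 (-0.85 to 4.48), and NMS_1286937 minus TAK_960 was 0.80 (-2.15 to 3.76). None was called (adjusted p of at least 0.950). The median over 40 mitosis genes was 0.10 for GW843682X minus NMS_1286937, -0.21 for GW843682X minus TAK_960 and -0.22 for NMS_1286937 minus TAK_960. Against Poloxin and Poloxime, the 3 ATP-site compounds had medians between -0.86 and -1.26.

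Rigosertib was the only compound with called genes of its own. That these lay outside the range of the other wells adds no support, because the same wells gave the calls. The share of all genes outside that range was not counted. Against the 40 other compound wells of plate 3, 7 of 7141 genes were called (0.098%; 1067 at an unadjusted p under 0.05), and all 7 lay outside the range of the 40 wells. Tyms, on chr5:30058202-30073617 (mm10, minus strand), had 18.4 CPM with Rigosertib, against 56.4 to 135 CPM (median 97.7) in the other wells, a change of -2.53 ± 0.42 (edgeR adjusted p = 0.001). It encodes thymidylate synthase and was the only decrease (0.014% of the genes tested).

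The 6 increases (0.084% of the genes tested) were led by Malat1, a nuclear long non-coding RNA on chr19:5795690-5802672 (mm10, minus strand). Malat1 had 229 CPM with Rigosertib, against 20.5 to 126 CPM (median 45.5), a change of 2.07 ± 0.35 (adjusted p = 0.001), and an exon of Gm37376 overlaps it on the other strand. Medium wells of low total on plate 3 came near that level, with 193 CPM in bC8FAE 4 and 202 CPM in MEF 3. The other bC8FAE wells had 34.8 to 58.8 CPM. Grem1, which encodes the BMP antagonist gremlin, had 420 CPM against 29.5 to 220 CPM (1.93 ± 0.41, adjusted p = 0.041). Clcn4-2, a chloride transporter gene, had 102 CPM against 11.7 to 56.1 CPM (1.48 ± 0.33, 0.042). Hmox1 had 386 CPM with Rigosertib, against 88.4 to 252 CPM (1.41 ± 0.29, adjusted p = 0.016). Cd47, the "don't eat me" surface signal, had 715 CPM against 158 to 487 CPM (1.25 ± 0.28, 0.042). Ctsb, which encodes the lysosomal protease cathepsin B, had 4135 CPM against 1246 to 2762 CPM (1.06 ± 0.21, 0.016), and an exon of Fdft1 overlaps it on the other strand.

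Levels of mitosis genes were low with Rigosertib as well. Cenpa had 21.0 CPM against 16.0 to 303 CPM (median 189), Top2a 23.6 CPM against 10.0 to 182 CPM (median 97.3) and Cdc20 26.3 CPM against 41.9 to 185 CPM (median 112). Cdc20 was below all 40 other wells and the other two above 1 each. Aurkb had 0 counts with Rigosertib and 2.0 to 52.4 CPM in the other wells, at least 3.82-fold lower than in these pooled. None of the 41 mitosis genes was called (Cdc20 -2.22 ± 0.55, adjusted p = 0.064). Over 40 mitosis genes, the medians of GW843682X, NMS_1286937 and TAK_960 minus Rigosertib were 0.80, 0.80 and 0.98, through the other wells of each plate, and no gene was called in these pairs. Without the 2 wells of other cell cycle inhibitors on the plate, 185 of 6955 genes (2.66%) were called, 89 higher and 96 lower, with 17 of 40 mitosis genes lower.

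Plate 3 also held 5 wells named bC8FAE, taken from their name as the screening medium with no compound. A comparison with them, chosen after the data were seen, took its spread from 31 wells that include the replicate wells of the media, and their names do not say whether they received a vehicle. It called 1269 of 7057 genes (18%), with 648 higher (9.18%) and 621 lower (8.8%). Without 2 wells of low total, bC8FAE 4 and MEF 3, it called 1520 of 6896 (22%), with 719 higher and 801 lower. The spread between replicate medium wells excludes that between compounds, so these counts are not comparable with those above.

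In that comparison 22 of 40 mitosis genes were called lower and 0 higher, where 8.8% of all genes were called lower and 9.18% higher, with a median of -2.01 (-1.86 with 4 genes at their bound), where the median of all genes was -0.01. Plk1 had 28.9 CPM with Rigosertib, against 119, 99.9, 93.6, 159 and 107 CPM in the 5 medium wells (-2.08 ± 0.39, edgeR adjusted p = 3.22e-05). Cenpa had 21.0 CPM, against 157 to 239 CPM (-3.44 ± 0.35). Aurkb, at 0 counts, was at least 4.13-fold lower than in the medium wells pooled. Of 29 replication genes 13 were called lower, among them Tyms (-2.38) and Rrm2 (-1.96), which make or convert the precursors of DNA.

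Tubulin genes were lower too. Tubb5, a beta-tubulin gene, had 1164 CPM with Rigosertib, against 2510 to 3139 CPM in the 5 medium wells (-1.43 ± 0.20, adjusted p = 4.08e-08), and no overlap. Of 15 microtubule genes 6 were called lower, where 8.8% of all genes were, namely Tubb5, Tuba1a (-1.25), Tuba1c (-1.0), Tuba1b (-0.78), the centrosomal gamma-tubulin gene Tubg1 (-0.78) and Tubb4b (-0.55), and Map1a, a microtubule-associated protein, was higher (1.60). Tubulin genes are near-identical copies in part, so reads can be split between them. Among the other compound wells of plate 3, Tubb5 was also low with BEZ235 (tosylate) at 1381 CPM and LDC4297 at 1426 CPM. The highest was LY3009120 at 4219 CPM. Against the other compound wells of plate 3 the median of this list was -0.34, and 0 of 15 were called.

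Of 28 p53 targets 10 were called higher and 1, Rps27l, lower, against 9.18% and 8.8% of all genes. Mdm2 had 441 CPM with Rigosertib, against 104 to 210 CPM in the medium wells (1.48 ± 0.20), and Gdf15, a stress cytokine, 116 CPM against 20.2 to 48.6 CPM (1.72 ± 0.34). Cdkn1a had 3069 CPM, against 1551 to 2348 CPM (0.62 ± 0.17, adjusted p = 0.00669), and was above all 40 other compound wells as well. Fas, the death receptor gene, and Pmaip1, which encodes NOXA, were also called higher (2.22 and 1.86).

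Secreted inflammatory genes were called higher in 9 of 23 cases and lower in 1, Igfbp4, against 9.18% and 8.8% of all genes. Ccl2, a monocyte chemokine gene, had 86.7 CPM with Rigosertib, against 17.8, 2.2, 12.6, 33.5 and 10.2 CPM in the medium wells (2.61 ± 0.67, adjusted p = 0.00691). In the other compound wells of plate 3, Ccl2 ran from 0 CPM with SB_203580 (hydrochloride) to 85.0 CPM with BEZ235 (tosylate), and THZ1 (hydrochloride) had 69.3 CPM. The chemokine genes Ccl7 (1.46) and Ccl8 (2.37) and the matrix protease genes Mmp3 (1.34), Mmp10 (1.99) and Mmp13 (1.70) were also higher than in the medium wells. Of 24 NRF2 and oxidative stress genes 9 were higher (9.18% of all genes) and 0 lower, with Gclm, the regulatory subunit of glutathione synthesis (2.26), Ftl1, the ferritin light chain (2.07), and Sqstm1, the autophagy receptor p62 (1.73), among them. Plk3 was higher as well (1.48 ± 0.25, adjusted p = 5.1e-06), and Nkd1, Notum and Wif1 of the Wnt targets were lower (-1.43, -1.61 and -2.61).

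**Figure D5:**
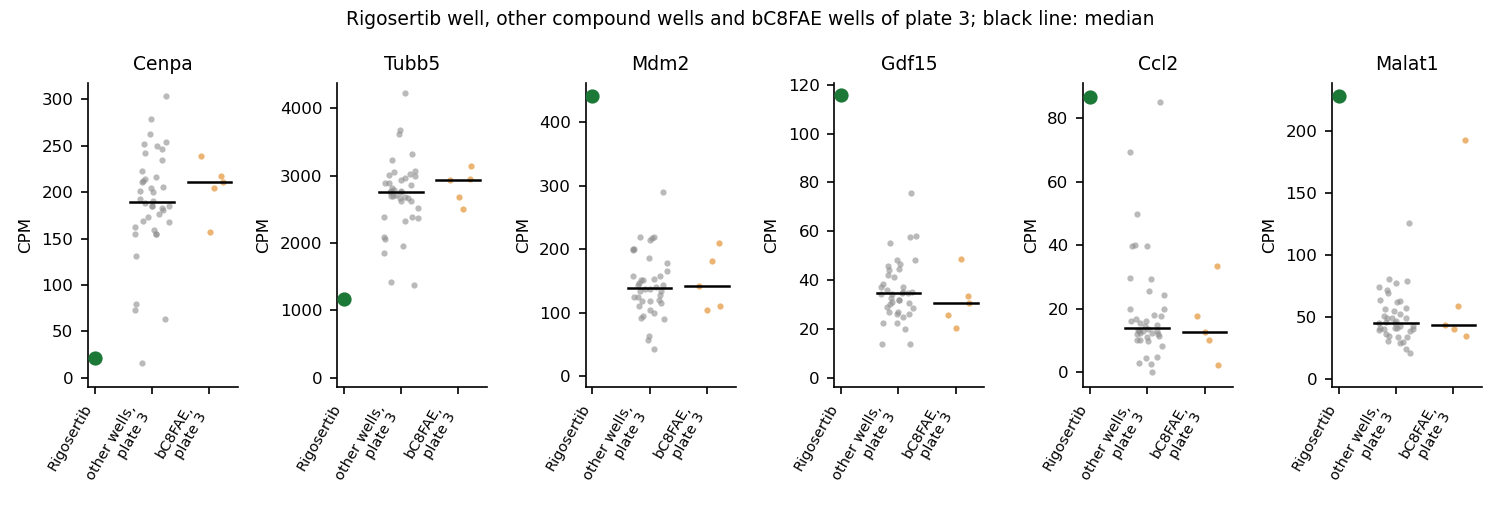
Level of Cenpa, Tubb5, Mdm2, Gdf15, Ccl2 and Malat1 (vertical axes, CPM) on plate 3, with Rigosertib first, then the other 40 compound wells and the 5 bC8FAE wells. Rigosertib lies at 1164 CPM for Tubb5, below the 2510 to 3139 CPM of the bC8FAE wells, and at 441 CPM for Mdm2, above their 104 to 210 CPM.

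Genes with large changes against the medium wells that the naming rule picked included the agouti gene a (overlapped by Raly on the same strand), Col26a1, Cd83 and Pcsk1n, all at 0 counts with Rigosertib, and Tinagl1 (2.70), Crct1 (2.68), Lce1g (2.55) and Ccl2 on the higher side. The gene a was at least 8.13-fold lower, Col26a1 4.88-fold, Cd83 2.85-fold and Pcsk1n 2.64-fold. Crct1 and Lce1g encode cornified envelope proteins of skin; Lce1g had 373 CPM with Rigosertib, against 37.9 to 79.3 CPM. Saa3, an acute phase gene, had 49.9 CPM, against 0 to 8.4 CPM, and was called only without the low wells (4.97 ± 1.37, adjusted p = 0.0118, against 4.57 ± 5.86, adjusted p = 0.657, with them). Gm26924 was also called only without them (2.56, adjusted p = 0.009, against 1.68, adjusted p = 0.166). It had 1821 CPM with Rigosertib, against 2347 CPM in bC8FAE 4 and 230 to 327 CPM in the other 4 medium wells.

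Fibroblast markers changed in both directions with Rigosertib. Thy1, a fibroblast surface marker, had 462 CPM, against 1788 to 3024 CPM in the medium wells (-2.45 ± 0.29). Its level was 2216, 825 and 828 CPM with GW843682X, NMS_1286937 and TAK_960, against a median of 2170 CPM in the other wells of plate 1, and it was not called there (-0.90, adjusted p = 0.218). Dcn, the proteoglycan decorin, had 244 CPM with Rigosertib, against 27.8 to 67.1 CPM (2.40 ± 0.52), and Col1a2 108 CPM, against 172 to 369 CPM (-1.20 ± 0.26).

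Macrophage markers were high in some of the same wells. Their summed level (4 of 5 listed genes in the table) was 104 CPM with GW843682X, 220 CPM with NMS_1286937, 122 CPM with TAK_960, 75.6 CPM with Poloxin and 155 CPM with Poloxime, against 0 to 254 CPM (median 59.2) on plate 1. Rigosertib had 234 CPM, against 22.5 to 290 CPM (median 50.3) on plate 3. The sum was carried by Lyz2 and Cd68, a lysosomal gene at 97.2 CPM with Rigosertib and 51.9, 49.8 and 62.2 CPM in the ATP-site wells, against medians of 24.3 CPM and 29.0 CPM, while Ptprc was at 0 in all 6 wells. Of the skeletal muscle markers, Des had 43.3, 91.2 and 151 CPM in the ATP-site wells and 94.6 CPM with Rigosertib, against medians of 19.2 CPM and 15.2 CPM, and Myog had 0 to 8.3 CPM. The part of these markers in the results above was not tested.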

How the data were processed

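Whole-number counts per gene and well were deposited by the authors for 3 plates, with lists of other text (barcodes and well names) deposited beside them. No scaling had been applied to these values. The submitters' processing notes name STAR and the mm10 build, with version, annotation, strand use and identifier collapsing not given in the sources used here. Of 274 columns 17 could not be given to 1 plate and were not used. Columns that repeated another exactly were left out, 2 of them on plates 1 and 3. The 4 rows with repeated names (0.0155% of counts) were also left out. Wells needed 10% of the plate median total (90 on plate 1, 41 on plate 3).

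From the counts, edgeR 4.0.16 (R 4.3.3) was run with its quasi-likelihood test after TMM scaling. Genes were kept if at least 3 wells reached the CPM that equals 10 counts at the median library. P-values were adjusted by Benjamini-Hochberg over all genes tested, or all genes and pairs, and a gene was called under 0.05. CPM are edgeR's counts per 1e6 counts of a well's total. Single compounds were fitted on their plate, classes and pairs on both plates with a plate term. Floors of 3 counts cover counting error only. Gene positions are from GENCODE vM21. The fits were tested on simulated data with 200 changed genes. These were drawn from genes averaging at least 10 counts at the median library in the reference wells. Alternatives were DESeq2 (1.42.0) scaling and its test, other filters, other reference wells and leaving out each class well.

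The 6 compounds, the gene lists and the tests were chosen with earlier results of these data known. The rule for named genes took the 6 largest called rises and falls with at least 10 CPM in a group, up to 4 called genes per list, and Plk1 to Plk5, Ccnb1, Cdc20, Aurka, Top2a, Mki67, Cdkn1a and Mdm2. The other genes named (among them Cenpa, Aurkb, Antxr2, Snrpc, Vim, Thy1, Dcn, Tubb5 and those beyond 4 of a list), and the promoters shown, were chosen after their values were seen. Some genes that the rule would name are not reported here.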

Additional observations from a re-analysis of the deposited data

Results flagged for a closer look

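Usp2 is listed because the ATP-site and polo-box classes differed in it by a test of the difference itself. It had 0 counts in the wells of GW843682X, NMS_1286937 and TAK_960 and 41.6 and 43.7 CPM with Poloxin and Poloxime. The fitted log2 difference was -6.90 (edgeR adjusted p = 0.0487), a value that depends on the prior count because the ATP-site wells are at 0, and the bound is at least 11.4-fold lower in the ATP-site wells. It was the 1 gene called of 7173 tested.

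Data outside the comparisons also held counts. The wells named nocell_2 and nocell_3, which by their names held no cells, had totals of 4280 and 25308 counts, against 115541 to 450514 in the 6 compound wells.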

How the results depend on the processing

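For single compounds on plate 1, the polo-box class and the 15 pairs, the count of called genes stayed 0 under every alternative run, except that NMS_1286937 had 1 with no filter (Marco, 4.38, adjusted p = 0.006). The Rigosertib count of 7 became 37 with the DESeq2 test, 15 with no filter, 185 without other cell cycle inhibitor wells, 24 with the bC8FAE wells added, and 1269 and 1520 against the bC8FAE wells alone, with and without 2 low wells (chosen after seeing the data). Its total, 87.8% of the plate median, was 86.5% of that over all listed wells. The ATP-site count of 83 became 14 with no filter, 327 without cell cycle inhibitor wells and 54 on plate 1 alone (added after seeing the data); it ran from 1 to 30 with 1 well left out. With DESeq2 size factors the split of 42 higher and 41 lower became 66 and 35, and under the other filter, the DESeq2 test, deeper wells or added bC8FAE wells the count was 89 to 124. The single call between the classes became 2 with the stricter filter (Usp2 and Msl3), and 0 with the DESeq2 test, with no filter, with deeper reference wells, on plate 1 alone and in every fit with 1 well left out (0 to 0).

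Of 650 values of named genes, 532 kept direction and call, 65 lost the call, 37 gained it and 16 changed sign. In the polo-box class, Ccnb1 (-0.01 as reported) became 0.00913 with DESeq2 size factors, 0.00710 with its test, 0.0141 with the stricter filter, 0.00477 with bC8FAE wells, 0.0319 with deeper wells, 0.0124 on plate 1, and Mki67 -0.0322 without cell cycle inhibitor wells. Leaving out 1 polo-box well gave -0.41 to 0.36 for Ccnb1, -1.31 to 0.62 for Mki67, -0.18 to 0.75 for Plk3 and -0.75 to 0.0769 for Mdm2. For Mki67 with 1 well left out, the ATP-site class gave -0.58 to 0.18 against the other wells and -0.81 to 1.12 against the polo-box class (0.153 without NMS_1286937). Plk2 with Rigosertib became -0.141 and -0.0799 against the bC8FAE wells. The cause was not tested.

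No paired analysis was possible because the compound wells carry no replicate numbers, and the numbers of the medium wells have no counterpart among them. Each compound had 1 well, GW843682X had 115541 counts, and doses are unknown. In simulated data changed by 1 on the log2 scale, 22.7% of genes were called for GW843682X, 21.2% for TAK_960, 18.2% for Rigosertib and 71.2% for the ATP-site class. Of genes changed by 2, the same fits called 49.3%, 82.1%, 65.7% and 92.5%. The changed genes all averaged at least 10 counts at the median library in the reference wells, so recovery of lower genes was not measured. With no plate difference and the same change in all wells of a class, the rates can be too high for the real wells.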
